A study of Homo sapiens with 12 samples.

Results

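The comparison described here set 3 libraries of CAOV3 cells given bezafibrate against 3 libraries of control CAOV3 cells, both without ascites. The 6 libraries were chosen by their titles and belong to a series of 12, whose other 6 came from cells given 10% ovarian cancer ascites, a fluid that builds up in the belly of patients, with or without the drug. CAOV3 is an established human ovarian cancer cell line, labelled as epithelial, high grade serous and wild type (WT), so all libraries come from 1 line. Control cells were labelled as given DMSO, a solvent, with no time stated for that group. Drug-treated cells were given bezafibrate at 200 uM for 16 hours in DMEM medium with 10% fetal bovine serum. DMSO is named for the control and not for the drug group, so an effect of bezafibrate and an effect of the solvent cannot be told apart. The labels number the replicates of each group but do not say that they were separate cultures, so SDs and p-values measure the spread between these libraries, which may be technical.

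Bezafibrate is a fibrate, a class of lipid-lowering drugs that bind the peroxisome proliferator-activated receptors PPAR alpha, PPAR delta and PPAR gamma. These nuclear receptors pair with a retinoid X receptor (RXR) on DNA and are activated by fatty acids and their derivatives. Their classical target genes take up, bind, burn or store fatty acids, and in liver they also make ketone bodies. Fibrates are used for high blood triglycerides. The question named by the study's design is which transcripts change in ovarian cancer cells exposed to ascites and to the drug, and the comparison without ascites gives the drug's part of it in plain medium.

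Total counts were 14653487, 13554634 and 12550494 in control replicates 1 to 3 and 16702636, 18762759 and 14639939 in bezafibrate replicates 1 to 3. The drug libraries were therefore deeper on average, with ranges that met at control replicate 1 and bezafibrate replicate 3, and the part of depth in the results was not tested beyond scaling each library. Keratin genes of epithelial cells (KRT7, KRT8, KRT18, KRT19) were abundant, but the serous ovarian markers PAX8, WT1, MUC16, FOLR1, WFDC2 and SOX17 were at or near 0. Of a longer list of 22 serous markers, 7 passed the filter on low counts. No count of WFDC2 or SOX17 was found in the 6 libraries. A count of 0 allows 3 counts a library, or 0.16 to 0.239 CPM (counts per 1000000 counts of the library), for counting error only. PAX8, WT1, MUC16 and FOLR1 had 16, 5, 4 and 10 counts over the 3 control libraries. The text therefore calls the cells CAOV3 and draws on no serous identity. Of other cell types, PTPRC of leukocytes, CDH5 and KDR of endothelium and THY1 of fibroblasts were at 0 in every library. In all, 5 of 12 blood, 2 of 4 endothelial and 1 of 8 fibroblast markers were at 0. Others were not: CD68 of blood cells had 72.5 CPM in control and 91 CPM with the drug (log2 fold change 0.33), and CD14 had 2.71 and 2.94 CPM. LUM of fibroblasts had 184 and 164 CPM, and PECAM1 of endothelium had 16 and 23 counts over the 3 libraries of each group.

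Bezafibrate raised 1257 genes and lowered 942, of 12470 tested, which is 10.1% higher and 7.55% lower, or 17.6% in all (edgeR's quasi-likelihood test, Benjamini-Hochberg adjusted p under 0.05, here "called"). The response was lopsided in size. Of the genes called higher, 121 rose at least 2-fold and 26 at least 4-fold, whereas 33 fell at least 2-fold and 0 fell 4-fold. Of the 33 falls, 11 were in genes below 1 CPM and 17 in genes of 1 to 5 CPM. Of the 121 rises, 21 and 37 were. Most calls were small: 946 rises and 811 falls were under 1.5-fold, and the median called rise and fall were 1.26-fold and 0.843-fold. The median log2 fold change over all tested genes was -0.0037. The spread between replicates was low, with a common biological coefficient of variation of 3.06%. Groups did not overlap in 2164 of the 2199 called genes, while 33.5% of all tested genes had no overlap.

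Genes called higher made up between 11.5% and 11.6% of the counts in the control libraries and between 14.1% and 14.3% in the drug libraries. The 121 genes that rose at least 2-fold were a small share of the RNA, from 0.134% to 0.137% in control and from 0.520% to 0.534% with the drug. Genes called lower went from between 11.7% and 11.8% to between 10.2% and 10.3%. The share of genes called was higher among abundant genes. Among the 556 genes below 1 CPM, 5.76% were called, and their median standard error was 0.419 on the log2 scale. Among the 2411 genes of at least 100 CPM, 26.4% were called at a median standard error of 0.0372, and 7 of these abundant genes rose and 1 fell at least 2-fold.

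**Figure D1:**
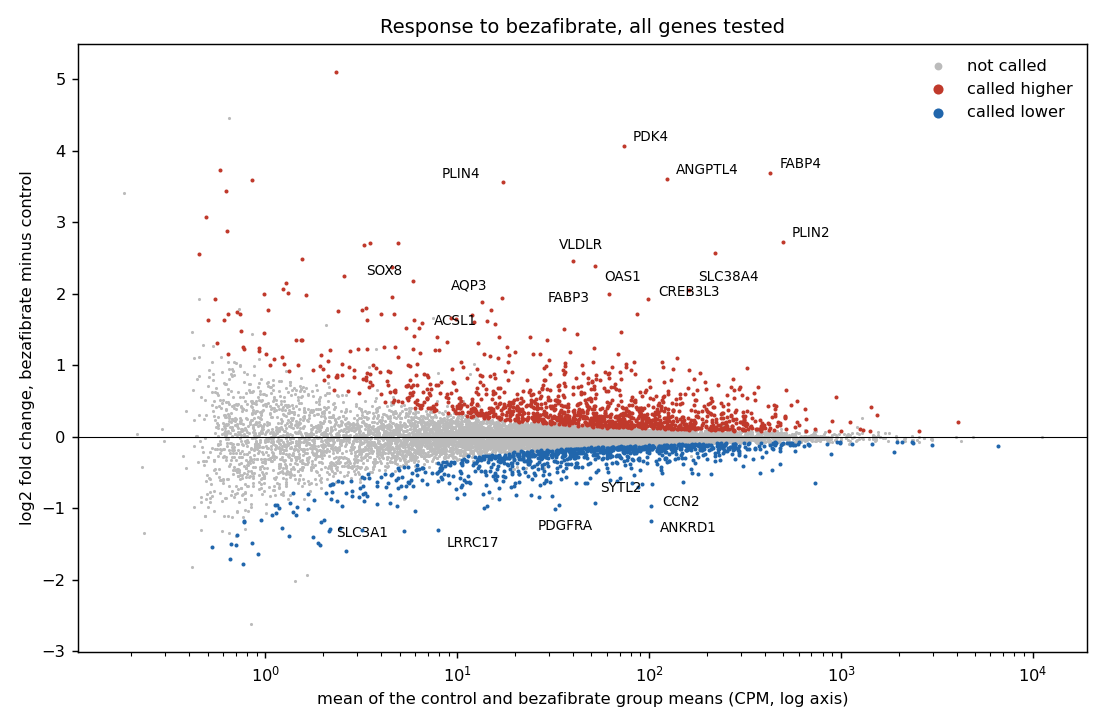
Log2 fold change (bezafibrate minus control, vertical) of every tested gene against the mean of both group means in CPM (log axis, horizontal), with called genes in red (higher) and blue (lower). The rises labelled PDK4, FABP4, ANGPTL4 and PLIN4 stand above 3.5 on the log2 scale, and the falls of comparable abundance stay above -1.5.

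The largest rises among genes of at least 5 CPM were in genes that control fuel choice and handle fatty acids. PDK4 (ENSG00000004799.8, GRCh38 chr7:95583499-95596491), the kinase that switches off pyruvate dehydrogenase and so spares glucose, had 8.52, 7.86 and 8.41 CPM in the control libraries. With bezafibrate it had 137, 140.0 and 139.7 CPM. All 3 drug libraries lay far above all 3 controls, with a difference of 4.07 on the log2 scale (edgeR adjusted p 6.14e-34, SE 0.068). In the pyruvate dehydrogenase list, 5 of the 16 members tested were called higher and 0 lower (31.2% called, against 17.6% of all genes). The kinases PDK1 (0.38) and PDK3 (0.29) were among those called. PDK2 was not called at 0.12. Here and in what follows, a lone value in brackets or after a gene is its log2 fold change, bezafibrate minus control. None of the 5 tested subunits of the dehydrogenase complex and none of its 3 phosphatase genes was called. PC, the enzyme that carboxylates pyruvate, rose from 32.6 ± 1.61 to 52.9 ± 2.31 CPM (SD, n = 3).

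ANGPTL4 (ENSG00000167772.12, chr19:8363289-8374373) encodes a secreted inhibitor of lipoprotein lipase and was the only gene of its kind that passed the filter on low counts. It had 19.9, 18.1 and 18.4 CPM in control and 223, 223 and 241 CPM with the drug. The groups did not overlap, with a difference of 3.60 on the log2 scale (edgeR adjusted p 1.41e-36, SE 0.0504). An antisense gene overlaps it and was not tested. VLDLR, a receptor that takes up triglyceride-rich lipoproteins, went from 12.4 ± 0.996 to 68.2 ± 1.22 CPM (log2 fold change 2.46). In its receptor family, with adaptors, 6 of the 14 members tested were called higher and 1 lower, SORT1 at -0.20. That is 50% called, against 17.6% of all genes. VLDLR was the only one of the 14 that changed by 2-fold or more.

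Most genes of proteins that carry fatty acids inside the cell rose. Of the 6 binding proteins tested, 5 were called higher, against 10.1% of all genes. FABP4, a binding protein best known from adipocytes, had 62.7, 62.1 and 60.0 CPM in control and 816, 797 and 772 CPM with the drug, a log2 fold change of 3.69. FABP3, the form of heart and muscle, had 25.4, 24.8 and 24.4 CPM in control and 100.4, 99.7 and 97.0 CPM with the drug (1.99). FABP1, the liver form, had 4.91, 4.33 and 4.44 CPM in control and 10.1, 9.58 and 12.4 CPM with the drug (1.21). No drug library of the 3 genes overlapped a control library. FABP5 (0.65) and the acyl-CoA binding protein DBI (0.48) rose less, and FABP6 was not called. The adipocyte markers ADIPOQ, LEP and RETN had 0 counts in all 6 libraries, and PLIN1 had 3 counts over the control and 4 over the drug libraries. CFD, the other adipocyte marker listed, had 4.37 CPM in control and 3.79 CPM with the drug and was not called (-0.20).

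Activation of fatty acids to their CoA esters is the step before oxidation or storage. Of 9 activating enzymes tested, 5 were called higher and 0 lower (55.6% called, against 17.6% of all genes). ACSL1, a long-chain acyl-CoA synthetase, had 6.14, 6.69 and 7.69 CPM in control and 23.5, 23.1 and 23.0 CPM with the drug (log2 fold change 1.77). ACSL5 rose by 1.35 and the medium-chain synthetase ACSM3 by 1.23, while ACSL4 and ACSF2 were not called. Membrane transporters moved less, with SLC27A4 at 0.44 and SLC27A2 at 0.32 called of 5 tested. Among 8 thioesterases, which undo the activation, ACOT11 rose from 2.18 ± 0.392 to 7.21 ± 0.302 CPM and THEM4 by 0.28. Over the whole list of uptake and activation, 14 of 28 tested members rose and 0 fell (50% called, against 17.6% of all genes). The median log2 fold change was 0.33.

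Genes of lipid storage rose too, and storage and oxidation genes were thus both called higher. In the list of lipid droplets and triglyceride, 17 of 36 tested members were called higher, 0 lower and 19 not, with a median of 0.16. That is 47.2% called, against 17.6% of all genes. PLIN2 (chr9:19108375-19149290), the perilipin that coats droplets in most cells, had 130.3, 133 and 128 CPM in control and 876, 866 and 853 CPM with the drug (2.73, SE 0.0307). PLIN4 had 2.52, 2.64 and 2.93 CPM in control and 33.5, 30.5 and 31.8 CPM with the drug (3.56). Both genes stood apart in every library, but PLIN4 overlaps HDGFL2 on the opposite strand, and since the strand setting of the counting is not given its value is uncertain. CIDEC, which fuses droplets, rose by 1.6, and PLIN3 was not called. Of the enzymes that build triglyceride, AGPAT2 rose from 94.4 ± 7.54 to 164 ± 8.58 CPM and GPAT3 by 0.34. AGPAT3 (0.14), GPAM (0.17) and LPIN2 (0.15) were called higher too, but lost their calls in 8, 6 and 2 of the 14 alternative settings. The lipases LIPE (0.40) and MGLL (0.35) were called, and PNPLA2 was not. The channels that pass glycerol through the membrane, AQP3 (1.94) and AQP7 (1.80), rose more than the enzymes of glycerol use, of which GPD1L (0.38) and GPD2 (0.18) were called and GK was not.

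**Figure D2:**
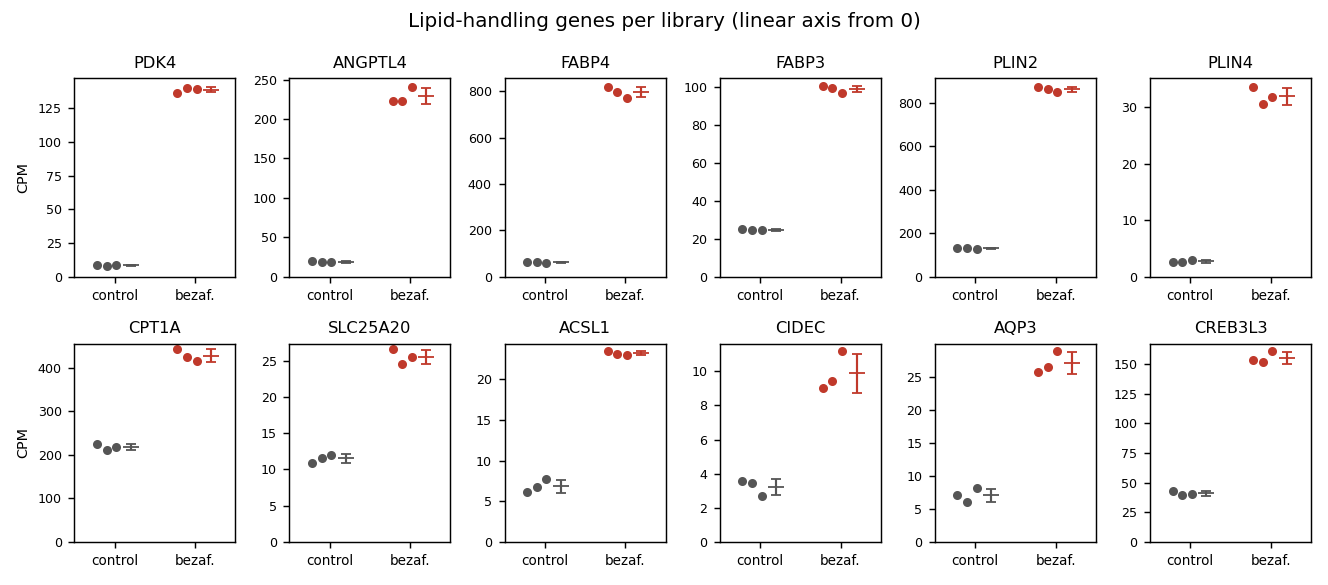
CPM of 12 lipid-handling genes in each control (grey) and bezafibrate (red) library, with the mean and SD of 3 libraries beside the points and each axis starting at 0. In every panel the 3 drug libraries lie above the 3 controls, from CPT1A at 1.96-fold to PDK4 at 16.8-fold.

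Mitochondrial oxidation of fatty acids rose in 13 of the 26 genes tested, with 0 lower (50% called, against 17.6% of all genes). The median log2 fold change was 0.19. The largest 2 rises were in the carnitine shuttle, by which fatty acids enter the mitochondrion. CPT1A (ENSG00000110090.13, chr11:68754620-68844410), the entry enzyme of the carnitine shuttle, had 225, 212 and 218 CPM in control and 444, 424 and 415 CPM with the drug (0.97, SE 0.0521, edgeR adjusted p 6.18e-10). SLC25A20, the carnitine-acylcarnitine carrier of the inner membrane, had 10.9, 11.6 and 12.1 CPM in control and 26.6, 24.6 and 25.5 CPM with the drug (1.15). The groups did not overlap for either gene. SLC22A5, which imports carnitine, rose by 0.69. CPT2, the shuttle's inner enzyme, was not called at 0.14, and CPT1B was not called at -0.35. CRAT (0.20) of the shuttle and DECR1 (0.18) of the later steps were called higher, but lost their calls in 7 and 6 of the 14 alternative settings.

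In the oxidation cycle itself, the dehydrogenases of very long, medium and short chains were called at 0.45 (ACADVL), 0.25 (ACADM) and 0.36 (ACADS), and 5 of the 8 acyl-CoA dehydrogenases tested were not. The trifunctional protein genes HADHA and HADHB rose from 489 ± 8.29 to 691 ± 20.4 CPM and from 171 ± 3.84 to 249.8 ± 2.42 CPM. ACAA2, the last enzyme of the cycle, rose by 0.60. Electrons leave the cycle through ETFA and ETFDH, which rose by 0.66 and 0.63, while ETFB was not called at 0.12. The respiratory chain behind them had few calls: 3 of 54 subunits (5.56%) were called, all higher and none by more than 0.20, against 17.6% of all genes. That count was 5 without bezafibrate replicate 3 and 8 in a fit of only the 6 libraries compared.

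Peroxisomes start the oxidation of very long chains. Of 35 peroxisomal genes tested, 13 were called higher and 1 lower (40% called, against 17.6% of all genes), at a median of 0.12. Catalase (CAT), which destroys the hydrogen peroxide made there, rose from 76.8 ± 3.80 to 124 ± 2.13 CPM. HSD17B4 (0.59), ECH1 (0.52) and ACAA1 (0.50), which act in later steps, rose by similar amounts. ABCD2, a fatty acid importer of the peroxisome, rose by 1.36 from a low level. Of 15 biogenesis genes 3 were called higher and 1 lower (26.7%, against 17.6% of all genes), the lower one (PEX10, -0.15) losing its call without any one of 5 of the 6 libraries, with an adjusted p of up to 0.29 in edgeR or DESeq2 over the alternatives. The rises EHHADH (0.27) and PEX11A (0.51) lost their calls in 8 and 5 of the 14 alternative settings.

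Ketone bodies are made from the products of fatty acid oxidation, and BDH1, which interconverts them, rose by 0.36. In the ketone body list 2 of 8 members were called higher and 2 lower (50% called, against 17.6% of all genes). Only 2 were called in all without control replicate 2 or without bezafibrate replicate 1 or 2. The lower calls, BDH2 at -0.25 and OXCT1 at -0.13, were lost in those fits.

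The receptors themselves changed in different directions. PPARD, the gene of PPAR delta, had 8.93, 10.4 and 10.2 CPM in control and 14.6, 14.6 and 16.3 CPM with the drug (0.62, edgeR adjusted p 1.02e-05). PPARG had 90.3, 87.9 and 91.2 CPM in control and 63.5, 71.2 and 71.6 CPM with the drug (-0.39, edgeR adjusted p 1.97e-08). PPARA, the classical receptor of fibrates, stayed between 4.43 and 5.76 CPM in all 6 libraries and was not called at 0.09, and RXRA was not called at 0.02. Among 40 tested nuclear receptors and coregulators, 9 were higher and 7 lower (40% called, against 17.6% of all genes). HR, a corepressor and histone demethylase, rose from 40.2 ± 1.76 to 133 ± 3.44 CPM, the largest change of the list. The sterol receptor gene NR1H3 (LXR alpha) rose by 1.1. RARB, a retinoic acid receptor, fell by 0.65, NR0B2 by 0.50 and the glucocorticoid receptor NR3C1 by 0.36.

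CREB3L3 (ENSG00000060566.14), a membrane-bound transcription factor of liver and intestine that acts on triglyceride metabolism, had 42.7, 39.2 and 40.5 CPM in control and 153, 151 and 161 CPM with the drug (1.93). Among the promoters searched of genes raised at least 2-fold, it was the one that held a match to a looser form of the PPAR response element. That element is a direct repeat with a spacer of 1 base. RefSeq promoters of GRCh38.p14, 1 per symbol and each 250 bases before to 50 after a start, were matched by symbol for 10112 of the 12470 tested genes (81.1%). They were searched on both strands, and FABP4, SOX8 and C11orf86 had none. The exact form, AGGTCA repeated after 1 base of any kind, stood in 3 of the 10112 (0.0297%) and in 0 of 1006 matched genes called higher. A looser form, which repeats AGGNCA in the same way and includes the exact one, stood in 25 (0.247%) of all tested, 5 of 1006 called higher (0.497%) and 0 of 762 called lower, and in 0.308% of all 27305 promoters in the table. Of the 91 matched genes that rose at least 2-fold, 1 held it. The single repeat unit AGGTCA, which the exact form holds, stood in 15.4% of those 91, in 9.78% of all tested and in 13.9% of all promoters in the table.

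The matches of CREB3L3, PDZK1 and CCL15 are shown because they are 3 of the 5 promoters of called rises that held the looser form. PDZK1, a scaffold protein that binds the receptor SCARB1, and the chemokine CCL15 were chosen after their values were seen. Capitals mark the match, and each line runs 5′ to 3′ along the gene.
CREB3L3: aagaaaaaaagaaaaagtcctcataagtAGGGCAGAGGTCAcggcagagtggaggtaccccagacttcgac
PDZK1: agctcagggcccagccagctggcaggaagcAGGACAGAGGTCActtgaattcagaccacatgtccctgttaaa
CCL15: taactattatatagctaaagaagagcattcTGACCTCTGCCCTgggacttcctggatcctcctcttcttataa

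The CREB3L3 window is chr19:4153381-4153451 on the plus strand, with the match starting 222 bases before the start site. PDZK1 lies at chr1:145707434-145707506 and CCL15 at chr17:36001578-36001650, both on the minus strand, with the matches starting 76 and 67 bases before the start, that of CCL15 in reverse orientation. PDZK1 went from 21.3 ± 2.80 to 39.3 ± 2.20 CPM (0.89) and CCL15 from 5.78 ± 0.184 to 8.65 ± 0.46 CPM (0.59). The other called rises with such a match were SEMA3G (0.66) and CKMT1B (0.34), named for the match alone. CKMT1B shares near-identical sequence with CKMT1A and is uncertain. A match describes letters in the window and not a bound site.

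Many sterol genes rose modestly. Of 12 tested genes of sterol efflux and remodelling known as targets of the liver X receptors, 7 were called higher and 0 lower. That is 58.3% called, against 17.6% of all genes, at a median of 0.22. The cholesterol exporter ABCA1 had 18.5, 21.5 and 21.7 CPM in control and 34.7, 35.9 and 36.5 CPM with the drug (0.80), and ABCG1 rose by 0.95. LPCAT3, which places polyunsaturated chains in phospholipids, rose by 0.95 but overlaps EMG1. SREBF1, usually a strong target of the same receptors, was not called at -0.10. In sterol synthesis, 12 of 28 were called higher and 1 lower (HMGCS1, -0.16), or 46.4% called, with a median of 0.12. MSMO1, which removes methyl groups from sterols, rose from 52.1 ± 2.26 to 69.9 ± 1.38 CPM, and the squalene synthase gene FDFT1 from 118 ± 1.04 to 171 ± 0.404 CPM. In fatty acid synthesis, 0 of the 7 tested genes of chain building were called, with FASN at 583 ± 14.4 and 584 ± 26.1 CPM, whereas the desaturase SCD (0.30) and the elongase ELOVL6 (0.50) rose.

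Apolipoproteins and liver-type secreted proteins were mostly at low levels. APOA2 rose from 4.29 ± 0.984 to 11.3 ± 1.35 CPM (1.39) and APOC1 by 0.80, while APOA1 was not called at -0.51. The fibrinogen gene FGB fell from 3.62 ± 0.208 to 2.04 ± 0.315 CPM, and the retinol carrier RBP4 rose by 0.55. Among mitochondrial carriers, SLC25A42, which brings CoA into the mitochondrion, rose from 8.57 ± 1.68 to 19.03 ± 0.869 CPM, and the uncoupling protein gene UCP2 by 0.32. Of 10 CoA synthesis genes 1 was called, PANK3 at 0.20, and of 12 cytochrome P450 genes 2 were, CYP26B1 (0.34) and their electron donor POR (0.56). These shares were 10% and 16.7%, against 17.6% of all genes.

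A few antiviral genes rose, while most interferon-stimulated genes tested were not called. Of 23 interferon-stimulated genes tested, 5 were called higher and 0 lower (21.7%, near the 17.6% of all genes), and the median was 0.03. OAS1, which senses double-stranded RNA, had 15, 18.6 and 16.8 CPM in control and 88.8, 86.7 and 87.0 CPM with the drug (2.38). OAS3 had 75.9, 71.1 and 80.1 CPM in control and 156, 158 and 156 CPM with the drug (1.05). OAS1 and OAS3 groups were fully separate, and OASL (1.19), the helicase gene DDX60 (1.63) and the transcription factor IRF1 (0.99) were the other 3 calls. IFIT1 and IFI6 were not called. 

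CSF2, the growth factor GM-CSF, had 1.02, 0.882 and 0.714 CPM in control and 5.55, 5.97 and 5.50 CPM with the drug (2.68, edgeR adjusted p 1.22e-12), the largest change of the NF-kB and cytokine list. In that list 3 of 26 were called higher and 4 lower (26.9%, against 17.6% of all genes). TNFSF15, a TNF family ligand, fell by 0.99, IL18 by 0.53 and the NF-kB modulator NFKBIZ by 0.71. NFKBIE, an inhibitor of NF-kB, rose by 0.45, and TNFAIP3 was not called.

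The largest fall among genes of at least 100 CPM was in ANKRD1, a target of the growth regulator YAP (chr10:90912096-90921276). It had 139, 147 and 140.1 CPM in control and 58.7, 64.9 and 64.3 CPM with the drug, a difference of -1.18 on the log2 scale (edgeR adjusted p 2.12e-10, SE 0.0664). CCN2 (chr6:131948176-131951373), the connective tissue growth factor, had 129.6, 139.9 and 138 CPM in control and 67.8, 70.3 and 70.4 CPM with the drug (-0.97). CCN1 had 99.1, 101 and 95.9 CPM in control and 66.3, 69.1 and 69.3 CPM with the drug (-0.53). In these 3 classical YAP targets each drug library lay below each control. Over the 11 YAP genes tested, 7 were called lower, against 7.55% of all genes, and 1 higher, the coactivator WWTR1 (0.24). YAP1 and TEAD4 were not called, and AXL (-0.23) and LATS2 (-0.29) were lower. AJUBA and TEAD1, both at -0.12, were lower too, but lost their calls in 3 and 5 fits that left out 1 library. Targets of TGF-beta did not move one way, at 4 higher and 4 lower of 22 (36.4% called, against 17.6% of all genes). TGFB2 fell by 0.65 and ID3 by 0.34, while BAMBI rose by 0.62 and ID1 by 0.33.

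Of 27 matrix and adhesion genes tested, 14 were called higher and 4 lower, or 66.7% against 17.6% of all genes. Integrins made up 7 of the rises. The rises ITGA5 (0.18), LAMB3 (0.37) and ITGB1 (0.08) lost their calls in 7, 6 and 5 of the 14 alternative settings. The fall LAMB1 (-0.08) lost its call in 9. ITGA6, which binds laminin, had 199, 202 and 198 CPM in control and 355, 340.3 and 351 CPM with the drug (0.80), and ITGA3 went from 226 ± 6.18 to 366 ± 17.8 CPM (0.70). Collagens went both ways. The collagen VI genes COL6A2 (0.87) and COL6A1 (0.61) and the laminin LAMA3 (0.72) rose, while the fibrillar collagens COL3A1 (-0.71), COL1A1 (-0.68) and COL5A2 (-0.40) fell. FN1, fibronectin, had 194, 195 and 201 CPM in control and 136, 133 and 147 CPM with the drug (-0.51), and the proteoglycan VCAN fell by 0.50. PDGFRA, a growth factor receptor of mesenchymal cells that overlaps AC058822.1, went from 43.2 ± 3.92 to 21.6 ± 1.05 CPM (-1.0). Of the 8 fibroblast markers, 4 passed the filter and all 4 (COL1A1, COL3A1, PDGFRA and LUM) were lower, with a summed level of 232 to 244 CPM in control and 187 to 199.5 CPM with the drug. The fibroblast markers THY1, DCN and COL1A2 had no more than 1 count in either group, and the part of that cell type in these falls was not tested. In RNA of whole cultures, fewer cells of a type and less RNA per cell cannot be told apart.

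Epithelial junction genes changed beside them. CDH1, E-cadherin (chr16:68737225-68835548), had 19.02, 18.3 and 18.5 CPM in control and 55.9, 49.8 and 54.1 CPM with the drug, a log2 fold change of 1.51 with groups that did not overlap. CLDN4, a claudin of tight junctions, rose from 122 ± 4.24 to 196 ± 8.17 CPM and the keratin KRT7 from 762 ± 6.53 to 1118 ± 41.7 CPM. Another claudin, CLDN7, fell by 0.49, CDH17, liver-intestine cadherin, fell by 0.52, and EPCAM was not called at 0.19. Of 9 mesenchymal genes tested, 3 were called higher, 1 lower and 5 not. The higher ones were the repressors ZEB2 (1.00) and SNAI2 (0.54), which act on CDH1, and vimentin, VIM (0.21). The lower one was FN1, and ZEB1 and SNAI1 were not called. In the combined list 8 of 24 were called higher and 3 lower (45.8% called, against 17.6% of all genes). Its epithelial part had 5 higher and 2 lower of 15 tested (46.7% called). A separate set of epithelial markers, which leaves out CLDN7, summed to 6273 to 6403 CPM in control and 6597 to 6931 CPM with the drug. In it KRT7 and KRT19 (600 and 713 CPM) rose, while KRT8 (3010 and 2910 CPM) and KRT18 (1780 and 1720 CPM) were not called. Of the 9 markers tested, 5 were called higher and 0 lower, against 10.1% and 7.55% of all genes. One of these 5, PAX8, rested on 16 and 55 counts and lost its call in 4 of the 6 fits that left out 1 library, those without control replicate 2 or 3 or bezafibrate replicate 1 or 2 (edgeR adjusted p up to 0.17).

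**Figure D3:**
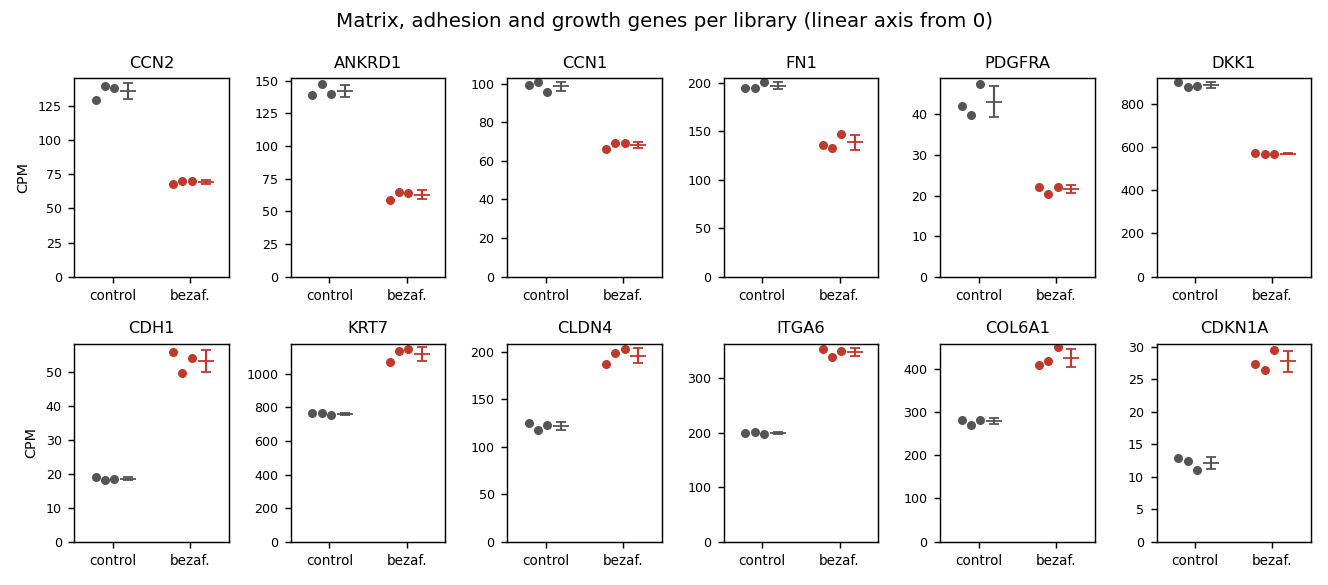
CPM of 12 matrix, adhesion and growth genes in each control (grey) and bezafibrate (red) library, with the mean and SD of 3 libraries beside the points and each axis starting at 0. The 3 drug libraries lie below the controls in the upper row, where DKK1 is at 0.641-fold, and above them in the lower row, where CDH1 is at 2.86-fold.

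Growth factor genes moved in both directions. The ERBB ligands AREG (0.56), TGFA (0.51) and EREG (0.48) rose, while their receptor EGFR fell from 162 ± 3.33 to 132 ± 2.47 CPM (-0.30). Among immediate-early genes 6 of 16 were called higher and 0 lower (37.5% called, against 17.6% of all genes). KLF4 (0.90), JUN (0.82) and KLF2 (0.72) rose most, and EGR1 was not called. The feedback inhibitors SPRY1 (-0.41), SPRY2 (-0.31) and DUSP4 (-0.29) fell, while DUSP1 (0.48) and SPRED1 (0.35) rose. DKK1, a secreted inhibitor of WNT signalling, had 902, 877 and 885 CPM in control and 572, 569 and 567 CPM with the drug (-0.64), values that did not overlap.

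Some proliferation genes were slightly lower. Of 44 replication genes 8 were called lower and 2 higher (22.7% called, against 17.6% of all genes), with a median of -0.08. The helicase subunit MCM3 fell from 314 ± 5.62 to 274 ± 4.06 CPM. E2F2, a transcription factor of S phase entry, went the other way, from 35.7 ± 0.88 to 60.2 ± 0.945 CPM (0.76). Of 39 mitosis genes 8 were called lower and 0 higher (median -0.06), with AURKB and ECT2 at -0.21 the lowest. The share called was 20.5%, near the 17.6% of all genes, of which 7.55% were called lower. That count of 8 was 3 without control replicate 2 and 5 without control replicate 3, bezafibrate replicate 1 or bezafibrate replicate 3. CDKN1A, the cell cycle inhibitor p21, had 12.95, 12.4 and 11.1 CPM in control and 27.4, 26.4 and 29.5 CPM with the drug (1.18). PHLDA3, an inhibitor of AKT, rose from 1.47 ± 0.0377 to 7.67 ± 1.42 CPM (2.37). Both are known p53 targets. Of 19 p53 targets tested, 3 were called, all higher (15.8%, near the 17.6% of all genes), and MDM2 was not called at -0.07.

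In the NRF2 and glutathione list 11 of 31 were higher and 4 lower (48.4% called, against 17.6% of all genes). Haem oxygenase HMOX1 rose by 0.88, the aldo-keto reductase AKR1B10 from 26.8 ± 1.42 to 45.1 ± 1.61 CPM (0.75), and the conjugate exporter ABCC3 by 0.66. AKR1C1 (0.91) and AKR1C2 (0.65) also rose, but are near-identical and therefore uncertain. GCLM, a classical NRF2 target, was not called, and ABCC2 fell by 0.34. In the ATF4 list 9 of 35 were higher and 0 lower (25.7% called), with CEBPB at 0.60 and asparagine synthetase ASNS at 0.29. The count of 9 was 4 without control replicate 2. Of 26 chaperone and unfolded protein genes 5 were higher and 0 lower, with HSPA5 at 0.17, and this share of 19.2% is near the 17.6% of all genes. That count was 3 without control replicate 1 or 3 and 2 without bezafibrate replicate 2. Hypoxia and glycolysis genes were higher in 9 and lower in 1 of 37 (27% called), while their median was -0.02. The rises included EPAS1 (0.67), P4HA2 (0.58), VEGFA (0.36) and the glucose transporter SLC2A1 (0.37). In the lysosome and autophagy list, SQSTM1, the autophagy receptor p62, rose by 0.69 and NEU1 by 0.53, and MITF fell by 0.60.

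**Figure D4:**
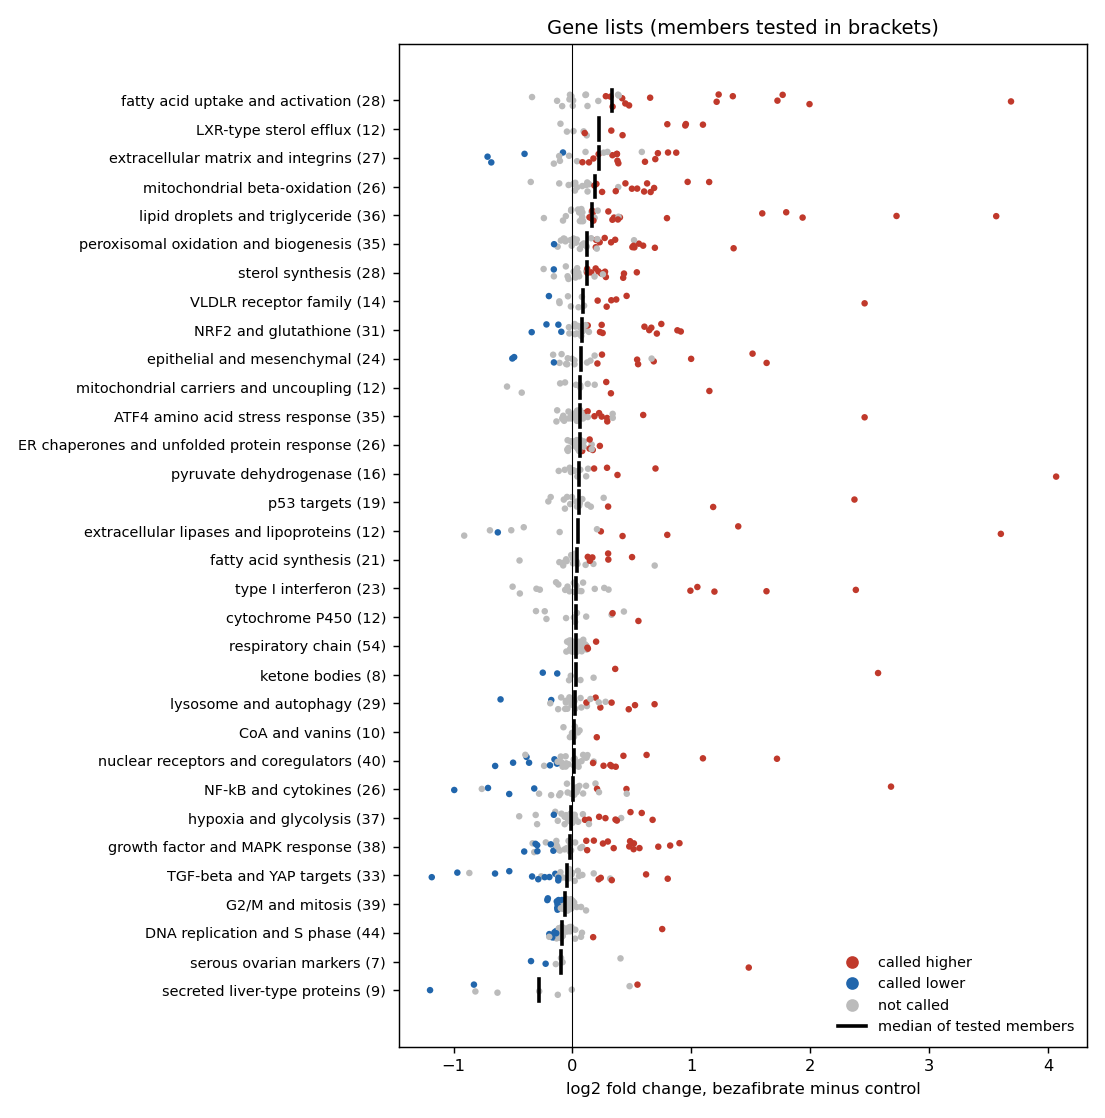
Log2 fold change (bezafibrate minus control, horizontal) of each tested member of the 32 gene lists, coloured by call, with the list's median as a black bar and the number of members tested in brackets. List medians run from -0.28 (secreted liver-type proteins) to 0.33 (fatty acid uptake and activation), and those of sterol efflux and of matrix and integrins are both 0.22.

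Outside the lists, the largest rises included SOX8, a transcription factor, at 2.18 (2.25, 1.84 and 2.22 CPM in control, 9.53, 9.31 and 9.96 CPM with the drug). SLC38A4, an amino acid transporter, rose from 62.7 ± 1.34 to 259.6 ± 8.90 CPM (2.05) and C11orf86 by 1.88. TWSG1, a secreted protein that binds bone morphogenetic proteins, rose by 0.98, and RHOF, a small GTPase whose exons overlap TMEM120B, by 1.1. The largest falls among genes of at least 5 CPM were SLC3A1, a subunit of a cystine transporter, from 7.56 ± 0.902 to 3.02 ± 0.272 CPM (-1.32) and LRRC17 from 11.2 ± 1.01 to 4.54 ± 0.233 CPM (-1.31). These values are uncertain, since SLC3A1 overlaps PREPL and LRRC17 lies in FBXL13. MALRD1 fell by 1.04, and KLRC2, a receptor of natural killer cells near-identical in part to KLRC1, by 0.97. TNFRSF11B, a decoy receptor that blocks bone resorption, went from 44.7 ± 0.353 to 23.0 ± 2.21 CPM (-0.95). SYTL2 (-0.93) and EXPH5 (-0.85), both effectors of vesicle transport, RAMP1 (-0.87), a partner of the CGRP receptor, LGALS2 (-0.84), the kinase PLK2 (-0.84) and GASK1B (-0.83) made up the 15 largest falls with PDGFRA, TNFSF15, CCN2 and ANKRD1. Among genes of at least 100 CPM, the protease PRSS23 (-0.66, overlapping FZD4), the adhesion receptor ADGRG6 (-0.63), the selenium carrier SELENOP (-0.52, overlapping CCDC152) and the metallothionein MT2A (-0.50) fell as well. The highest point in the plot of all genes, ISY1-RAB43, is a read-through gene that shares exons with RAB43, and its control libraries held 0, 0 and 0.397 CPM, so it is uncertain.

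The same drug contrast in cells given ascites shares no library with the comparison above, but comes from the same fit and estimate of spread. DMSO is named for ascites alone and not for both treatments, so drug and solvent cannot be told apart there either. The contrast with ascites called many of the same genes. There 2214 genes were called, 17.8% of those tested (10.5% higher and 7.29% lower). Of the 2199 genes called without ascites, 1577 were called with it, 1576 of them in the same direction. Among the strong changes, 105 of 121 rises and 22 of 33 falls of at least 2-fold were called again. All 43 genes named by rank were called in the same direction: PDK4 at 4.07, FABP4 at 3.78, ANGPTL4 at 3.65, PLIN2 at 2.72, OAS1 at 2.42 and CPT1A at 0.97 with ascites. A test of the difference between both drug responses called 0 of 12470 genes with edgeR, 1 with DESeq2 and 36 with edgeR and no filter on low counts. In the main edgeR fit 445 genes had an unadjusted p under 0.05, which is less than a share of 0.05 of those tested. Of the 43 genes, 5 had an unadjusted p under 0.05 in that test. The values with and without ascites were 1.38 and 1.77 for ACSL1, -0.88 and -1.18 for ANKRD1 and -0.80 and -0.97 for CCN2. None of these differences passed the adjustment, and a p that misses the threshold does not show that the responses were equal.

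**Figure D5:**
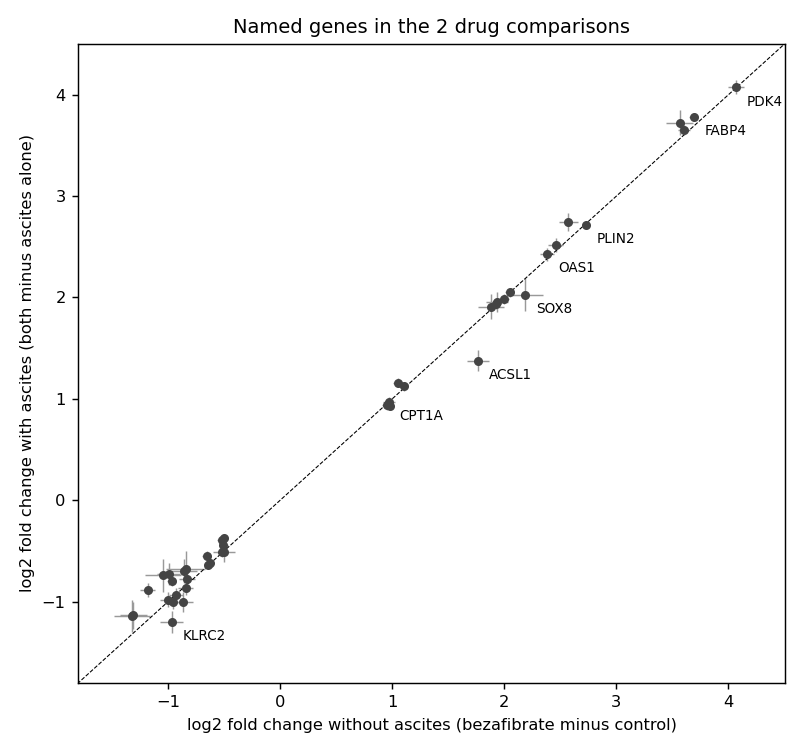
Log2 fold change of the 43 genes named by rank with ascites (both treatments minus ascites alone, vertical) against that without ascites (bezafibrate minus control, horizontal), with SE bars and a dashed line where both are equal. The genes lie near the line, with ACSL1 below it at 1.77 without and 1.38 with ascites.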

How the data were processed

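The authors deposited whole-number gene counts, 1 table per library. Per the submitters' processing notes, Trimmomatic 0.39, STAR 2.7.9a, RSEM 1.3.3, DESeq2 1.28.1 and GRCh38 were used. Whether the counts are rounded RSEM estimates, the annotation and the strandedness are not given in the sources used here. Overlapping or near-identical genes (exons of GENCODE 29, which matched 12429 of 12459 identifiers) are named as uncertain. Of 19677 genes, 12470 were kept by edgeR's filterByExpr (version 4.0.16, at least 10 counts, at least 15 in total). One quasi-likelihood model with the means of the 4 groups, and so 8 degrees of freedom for the spread, was fitted to all 12 TMM-scaled libraries (R 4.3.3). CPM are TMM-scaled counts per 1000000 and are not per length, so levels of different genes are not compared. Log2 fold changes are bezafibrate minus control, and an SE is the change over the square root of F. The fit was tested on simulated data. Between replicates, chi-square per degree of freedom was 1.45 to 2.25, so no library was a duplicate. DESeq2 1.42.0 and limma 3.58.1 were alternatives.

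Named by rank were the 15 largest rises and falls with at least 5 CPM and no overlap, and the 10 largest of at least 100 CPM. For the first of these, lack of overlap was a condition of the choice and is no added support. Genes of the 32 lists (955 of 957 entries found) could also be named. The members and lists were chosen with earlier results of these data known, so no list has a p-value. Some genes are not reported here.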

Additional observations from a re-analysis of the deposited data

How the results depend on the processing

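The number of genes called for bezafibrate against control was 2199 and stayed within 1.5 times of it in all 14 alternatives. It was 2190 with RLE scaling, 2322 with upper-quartile scaling (49.0% higher, against 57.2%), 2334 with no filter, 2170 with a filter of 1 CPM, 1748 with DESeq2, 2204 with limma-voom, 2575 in a fit of only the 6 libraries, and 1761 to 1888 without 1 of the 6. No called gene reversed in any of them, and at least 1705 of the 2199 calls were kept in each. Replicate numbers did not pair the samples: same-numbered libraries correlated at -0.0252, -0.00702 and 0.0328. A replicate block gave 2145 calls. Of 829 list and rank genes followed, 303 were called, 226 of them in every setting. All 43 rank genes kept their call, but were chosen as the largest called changes in these same libraries, which made that likely. The response with ascites gave 1742 to 2188 calls without 1 library. The difference of both drug responses gave 0 calls, 36 with no filter, 1 with DESeq2, 1 with the replicate block and 0 to 3 without 1 library. The cause was not tested. List counts that moved by over 1.5 times and are not given above were those of chaperones and serous markers. Chaperones went from 5 to 3 with upper-quartile scaling or DESeq2. Of 7 serous markers tested, 1 was called higher and 2 lower (42.9% called, against 17.6% of all genes). Their count went from 3 to 1 without bezafibrate replicate 1 or 2. Depth limits genes below 1 CPM, whose median standard error was 0.419.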
